A study of Mus musculus with 9 samples.

Results

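Chemokines are small secreted proteins that direct the movement of white blood cells through receptors coupled to G proteins. The CC and CXC families are named after the spacing of conserved cysteines, and Cx3cl1 is the single CX3C member. CXC chemokines with a Glu-Leu-Arg motif mainly attract neutrophils, Ccl2 and Ccl7 attract monocytes through Ccr2, and Cxcl10 attracts T cells through Cxcr3. Marrow stromal cells are a known source of several of them, and many chemokine promoters respond to NF-kB or to interferon-activated factors. The genes described here are all protein-coding genes named Ccl or Cxcl with a number, together with Cx3cl1, and without Cxcl12, which is given apart as a comparison. They make up 42 gene IDs with 36 symbols among 54532 genes in the table.

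Expression was measured by poly-A RNA sequencing in ST2 cells, a line of mouse bone marrow stromal cells, at 72 h. The groups were vehicle, recombinant human Wnt3a (rhWnt3a, 50 ng/ml), and rhWnt3a with OSMI, an inhibitor of the O-GlcNAc transferase OGT, at 20 µM, with 3 libraries each (described by the study as biological replicates). Wnt3a is a ligand of the β-catenin pathway, and the comparisons ask which genes it changed and what inhibiting OGT changed in its presence. The last group is named rhWnt3aOSMI in its titles, whereas its treatment label names OSMI by itself. By the titles, no group received OSMI without rhWnt3a, and all libraries come from a single cell line. Each library pools the RNA of many cells, so fewer expressing cells and less RNA per cell cannot be told apart.

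Each library held 16135898 to 17583945 counts. Vehicle replicate 3, rhWnt3a replicate 2 and OSMI replicate 3 stood apart from the other libraries of their groups over all genes (mean squared log2 difference 0.423, 0.392 and 0.439 against 0.117, 0.111 and 0.119 within the remaining pairs). On the main axis of spread within groups (54.8% of that variance), their scores were 42.1, 41.5 and −36.8. OSMI replicate 3 thus deviated in the opposite direction to vehicle replicate 3 and rhWnt3a replicate 2. Levels in single libraries are CPM, counts scaled to the library total after TMM normalization. Chemokine genes are ranked against each other only as FPKM, which also divides by length. Sums over genes in CPM are not divided by length. Calls required an edgeR adjusted p under 0.05 and a change of more than 0.5 on the log2 scale.

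Of the 42 IDs, 14 had enough counts to be tested, 11 had a few counts, and 17 (11 symbols) were at 0 in every library. Between vehicle and rhWnt3a, 8 of the 14 tested genes fell and 0 rose: Ccl2, Ccl7, Ccl9, Ccl6, Ccl20, Cxcl5, Cxcl10 and Cx3cl1. Of all 14004 tested genes, 5.86% fell and 2.92% rose in that comparison. Adding OSMI to rhWnt3a raised Cx3cl1 and lowered Ccl9 (all tested genes: 1.69% raised, 3.05% lowered). Against vehicle, the OSMI libraries were lower for 7 of the 8, with Cx3cl1 no longer called, and higher for 0 (all tested genes: 9.34% lower, 4.84% higher). The counts at an unadjusted p under 0.05, in either direction, were 10, 3 and 10 of the 14 (all tested genes: 19.9%, 22.6% and 30.3%). DESeq2 made 10, 3 and 8 calls in the same comparisons, against 8.70%, 8.94% and 14.0% of all genes to which it gave an adjusted p.

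The median log2 fold change of the 14 was −1.82 with rhWnt3a, against 0.04 over all tested genes. It was −0.03 when OSMI was added, against −0.01. Genes at the detection floor of 3 counts per library left both medians of the 14 at the same values when set to their bounds. The bounds lay on the same side of each median as the fitted values, so the medians could not move. Since 3 of the 14 (Ccl6, Ccl20 and Cxcl10) reached the count filter in every library of the vehicle group only, these summaries describe the tested genes and not the family as a whole.

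**Figure D1:**
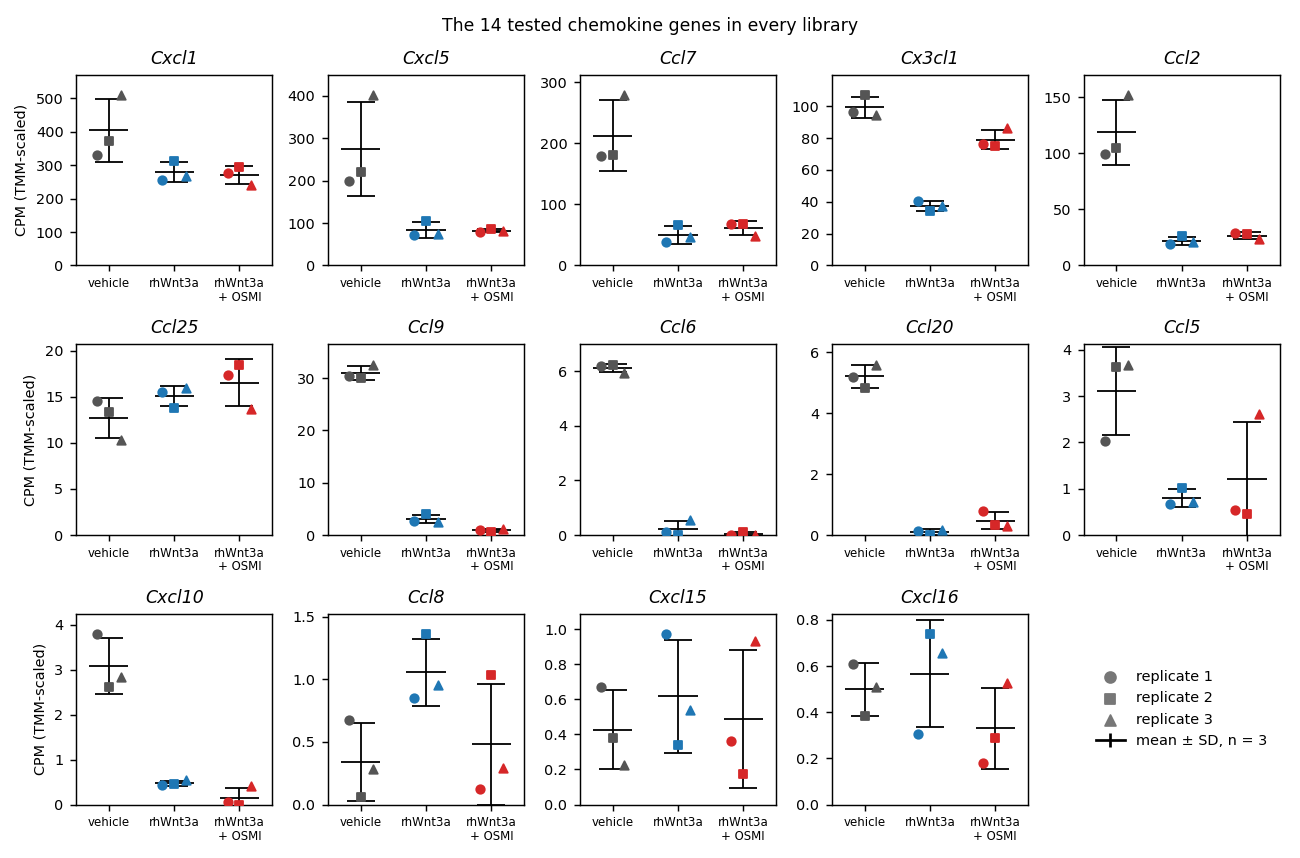
CPM of the 14 tested chemokine genes in each library (vertical axes, linear from 0, a scale for each gene) by treatment (horizontal axes). Symbols are replicates and lines are the mean ± SD of 3 libraries; Cx3cl1 falls from 94.3 to 107 CPM with vehicle to 34.1 to 40.3 with rhWnt3a and lies between 74.8 and 86.0 with OSMI, while Ccl9 falls at both steps.

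Summed over the 42 IDs, chemokine transcripts came to 1173 ± 287 CPM with vehicle, 494 ± 63.8 with rhWnt3a and 542 ± 38.1 with OSMI added (SD, n = 3 each). Cxcl1, Cxcl5, Ccl7, Ccl2 and Cx3cl1 held 95.8% to 98.5% of the summed FPKM in every library. In vehicle cells the highest was Ccl7 with 262 ± 67.9 FPKM, followed by Cxcl1 with 212 ± 47.3, Cxcl5 with 145 ± 57.3 and Ccl2 with 103 ± 23.9. Neighbours in this order overlapped between libraries. Cx3cl1 (24.9 ± 1.83 FPKM) and Ccl9 (10.1 ± 0.36) followed without overlap. Then came Ccl20 (3.62 ± 0.24), Ccl6 (3.36 ± 0.12) and Ccl5 (3.19 ± 0.95), whose ranges overlapped.

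With rhWnt3a the order changed at the top. Cxcl1 was highest with 146 ± 17.2 FPKM, above Ccl7 with 61.6 ± 18.7 in every library. The share of Cxcl1 in the summed chemokine FPKM was 26.7% to 28.9% with vehicle, 48.2% to 53.3% with rhWnt3a and 45.5% to 46.4% with OSMI added. Cx3cl1 took 3.38% ± 0.89 with vehicle, 3.31% ± 0.76 with rhWnt3a and 6.45% ± 1.16 with OSMI added (SD, n = 3 each).

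The promoter sequences of Ccl9, Ccl6 and Ccl20, the genes with the largest falls, are shown from 250 bases upstream of the RefSeq transcription start up to the base before it (GRCm38.p6, gene strand, 5′ to 3′). For these 3 genes the start is the same as in the deposited table. Capitals mark matches to the NF-kB consensus, to the AP-1 motif TGANTCA and to TATAAA, each searched on both strands, and Ccl6 holds none of them.
Ccl9 (chr11:83578637-83578886, minus strand): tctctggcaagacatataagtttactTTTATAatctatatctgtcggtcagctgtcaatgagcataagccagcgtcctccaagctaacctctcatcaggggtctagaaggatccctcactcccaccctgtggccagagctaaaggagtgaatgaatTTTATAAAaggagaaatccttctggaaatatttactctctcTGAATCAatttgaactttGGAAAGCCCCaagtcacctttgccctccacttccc
Ccl6 (chr11:83593088-83593337, minus strand): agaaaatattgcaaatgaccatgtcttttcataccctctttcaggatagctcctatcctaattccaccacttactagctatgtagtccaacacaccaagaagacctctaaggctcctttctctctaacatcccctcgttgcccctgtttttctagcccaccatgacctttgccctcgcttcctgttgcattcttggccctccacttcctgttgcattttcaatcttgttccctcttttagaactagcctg
Ccl20 (chr1:83116516-83116765, plus strand): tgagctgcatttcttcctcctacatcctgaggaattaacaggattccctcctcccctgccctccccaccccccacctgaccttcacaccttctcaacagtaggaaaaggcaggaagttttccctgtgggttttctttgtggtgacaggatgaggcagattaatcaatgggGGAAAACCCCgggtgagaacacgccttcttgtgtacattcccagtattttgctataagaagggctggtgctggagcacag

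RefSeq windows of this kind were found for 9 of the 14 tested genes, namely Cxcl1, Cx3cl1, Ccl25, Ccl9, Ccl6, Ccl20, Cxcl10, Ccl8 and Cxcl15. The NF-kB consensus was present in 4 of the 9: Ccl9, Ccl20, Cxcl10 and Cxcl1. Among 32851 promoters of the same length it was present in 3.9%. In Cxcl1 the match was GGGAATTTCC at −71 to −62 from the start, with an overlapping match on the other strand. In Cxcl10 the matches were GGGAAATTCC at −159 to −150 and GGGACTTCCC at −103 to −94. The AP-1 motif was present in Ccl9 and Cxcl10 (6.75% of promoters) and the core of the interferon-stimulated response element in Cxcl10 (2.98%). TATAAA was present in Cx3cl1, Ccl9, Ccl8 and Cxcl15 (12.4%). The Cx3cl1 match was at −6 to −1, and the RefSeq start of this gene lay 171 bases downstream of that in the deposited table. Of the motifs bound by TCF and LEF, the factors that act with β-catenin, CTTTGAT was present in 0 of the 9 (3.21% of promoters). CTTTGAA was present in Ccl25, Ccl8 and Cxcl15 (4.46%), of which 0 were called in any comparison. The C/EBP motif TTNNGCAA was present in 0 of the 9 (9.56%). These matches describe the letters in the windows only. The neighbours Ccl9 and Ccl6 share a run of 13 bases, GCCCTCCACTTCC, which begins at −14 in Ccl9 and at −55 in Ccl6.

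Ccl9 attracts myeloid cells through Ccr1 and is known in bone as a chemokine that acts on osteoclasts and their precursors. It had 30.4, 30.1 and 32.6 CPM in vehicle replicates 1 to 3. With rhWnt3a it had 2.62, 3.98 and 2.57 CPM, and with OSMI added 1.03, 0.631 and 1.17. The groups did not overlap at either step. The fall was 10.2-fold with rhWnt3a (log2 fold change −3.34 ± 0.23 SE, edgeR adjusted p = 3.3e-05) and a further 3.25-fold with OSMI (−1.70 ± 0.27, adjusted p = 0.0088). A fit of the 6 libraries of the OSMI step without the vehicle group gave an adjusted p of 0.0527 for the latter. Against vehicle the OSMI libraries were 32.9-fold lower.

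Ccl6, a second Ccr1 ligand, lies next to Ccl9 and had 6.17, 6.24 and 5.94 CPM with vehicle. After rhWnt3a the libraries held 2, 0 and 9 counts, and after rhWnt3a with OSMI 0, 2 and 0 counts, against 98 to 105 with vehicle. Ccl6 thus fell with rhWnt3a (log2 fold change −4.77 ± 0.67, adjusted p = 0.00153). Against vehicle, the OSMI libraries were at least 34.7-fold lower (edgeR adjusted p = 5.74e-04), the bound being set by 3 counts per library. Between rhWnt3a and OSMI its libraries overlapped at counts too low to compare.

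Ccl5, a chemokine that is produced in inflammation and attracts T cells and monocytes, had 2.02, 3.63 and 3.68 CPM with vehicle. It had 0.669, 1.02 and 0.718 CPM with rhWnt3a, and 0.544, 0.459 and 2.62 with OSMI added. The vehicle and rhWnt3a libraries did not overlap, but the difference was not called (log2 fold change −1.94 ± 0.60, adjusted p = 0.0831). DESeq2, the fit without a count filter, a fit of the 6 libraries compared and that without OSMI replicate 3 called it. Without the 3 libraries that stood apart, the adjusted p for this gene was 7.35e-04, and in OSMI replicate 3, one of those libraries, Ccl5 was 5.23 times the mean of the other two. Against vehicle, the OSMI libraries were called lower for Ccl5 without OSMI replicate 3 (log2 fold change −2.61, edgeR adjusted p = 0.00367) and without all 3 libraries that stood apart (−2.51, adjusted p = 1.18e-04). With every library, only the fit without a count filter called it. Ccl3 and Ccl4 of the same stretch of chromosome 11 did not pass the count filter. Ccl3 had 13, 2 and 2 counts with vehicle, 0, 0 and 0 with rhWnt3a, and 1, 1 and 0 with OSMI added. The fit without a filter called it lower with rhWnt3a (adjusted p = 0.03), a call that rests on these few counts. Ccl4 was at 0 throughout.

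Ccl2, also known as MCP-1, had 99.4, 105 and 152 CPM with vehicle, 19.0, 25.9 and 20.6 with rhWnt3a, and 28.8, 27.9 and 23.3 with OSMI added. All rhWnt3a and OSMI libraries lay below every vehicle library, and the rhWnt3a and OSMI libraries overlapped. Ccl2 fell 5.44-fold with rhWnt3a (log2 fold change −2.44 ± 0.20, adjusted p = 8.71e-05). It differed by 0.29 ± 0.19 (log2) when OSMI was added (95% interval −0.15 to 0.72, adjusted p = 0.401).

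Ccl7, its neighbour, had 179, 180 and 279 CPM with vehicle. It had 37.9, 66.6 and 46.2 CPM with rhWnt3a, and 68.4, 68.2 and 47.8 with OSMI added. The groups overlapped between rhWnt3a and OSMI as they did for Ccl2. The fall with rhWnt3a was 4.23-fold (log2 fold change −2.08 ± 0.26, adjusted p = 8.71e-04), and the difference with OSMI was 0.29 ± 0.25 (95% interval −0.28 to 0.86, adjusted p = 0.508).

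For both Ccr2 ligands the OSMI step depended on the libraries that stood apart. Without all 3 of them, Ccl2 (log2 fold change 0.51, edgeR adjusted p = 2.07e-04) and Ccl7 (0.70, adjusted p = 3.06e-06) were called higher with OSMI. The calls then rested on 2 libraries a group. Leaving out rhWnt3a replicate 2 and OSMI replicate 3 moved their groups in opposite directions on the axis of spread given above. The part of that shift in these calls was not tested. Ccl8, which lies in the same stretch of chromosome 11, had 11, 1 and 5 counts with vehicle, 14, 24 and 16 with rhWnt3a and 2, 18 and 5 with OSMI added. It was not called in any comparison. Ccl12 was at 0 in every library.

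Cxcl1 is a neutrophil attractant that acts through Cxcr2. Its level was 330, 372 and 510 CPM with vehicle, 255, 313 and 268 with rhWnt3a, and 278, 295 and 242 with OSMI added. Each rhWnt3a and OSMI library lay below each vehicle library. The differences from vehicle were nevertheless not called (log2 fold change −0.53 ± 0.18, adjusted p = 0.116 with rhWnt3a, and −0.57 ± 0.18, adjusted p = 0.0613 with OSMI). DESeq2 called both, with adjusted p values of 0.0482 and 0.0197 for this gene. The OSMI step itself gave −0.04 ± 0.18 (95% interval −0.44 to 0.37).

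Cxcl5, which shares the receptor of Cxcl1, had 200, 220 and 402 CPM with vehicle. With rhWnt3a it had 71.3, 105 and 75.0 CPM, and with OSMI added 79.1, 86.5 and 80.8. The fall with rhWnt3a was 3.27-fold (log2 fold change −1.71 ± 0.26, adjusted p = 0.00277), without overlap between the groups. The OSMI step gave −0.03 ± 0.26 (95% interval −0.60 to 0.55, adjusted p = 0.959). The remaining members with the Glu-Leu-Arg motif were scarce: Cxcl15 had 3 to 16 counts and was not called, and Cxcl2 and Cxcl3 had at most 2 counts in a library.

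The abundant genes moved together between replicates of a group. In vehicle replicate 3, Cxcl1, Cxcl5, Ccl7 and Ccl2 were 1.45 to 1.92 times the mean of the other two libraries, and in rhWnt3a replicate 2 they were 1.19 to 1.58 times. In OSMI replicate 3 they were 0.70 to 0.98 times. Cx3cl1 went the other way in the same libraries, with ratios of 0.93, 0.88 and 1.14. The part of this spread in the differences between groups was not tested. In the fit without all 3 of these libraries, the 8 falls with rhWnt3a were still called and Ccl5 was called as well. The libraries were picked by their distance from the rest of their groups, so leaving them out lowers the spread within groups. Calls over all genes rose from 1230 to 2557 at the rhWnt3a step. That fit thus cannot decide how much of the differences this spread makes up.

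Cx3cl1, or fractalkine, is made as a membrane-bound protein that holds Cx3cr1-bearing cells and is shed by Adam10 and Adam17. It had 96.4, 107 and 94.3 CPM with vehicle, 40.3, 34.1 and 37.2 with rhWnt3a, and 76.2, 74.8 and 86.0 with OSMI added. The 3 groups did not overlap in any pair. Cx3cl1 fell 2.67-fold with rhWnt3a (log2 fold change −1.42 ± 0.12, adjusted p = 1.19e-04) and rose 2.13-fold when OSMI was added (1.09 ± 0.12, adjusted p = 0.00208). The OSMI libraries still lay below each vehicle library, by 0.33 ± 0.12 on the log2 scale, a difference that was not called (95% interval −0.60 to −0.06, adjusted p = 0.1). Both steps share the rhWnt3a libraries, so their opposite signs are not independent of each other. Both calls held under every alternative that was run. Adam10 had 1568 to 2600 counts and Adam17 1436 to 2018 counts, and neither was called at either step.

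Ccl20 attracts cells that bear Ccr6, among them Th17 cells and dendritic cell precursors. Its counts were 85, 76 and 99 with vehicle, 2, 0 and 3 with rhWnt3a, and 13, 6 and 5 with OSMI added. Every rhWnt3a library was at or below the floor, and Ccl20 was at least 29.4-fold lower than with vehicle (edgeR adjusted p = 2.47e-04). In the OSMI libraries it was 11.0-fold lower than with vehicle (adjusted p = 8.86e-04). The OSMI libraries were at least 2.67-fold higher than those with rhWnt3a, but this step was not called (adjusted p = 0.107). DESeq2 and the fit without a count filter called it, with adjusted p values of 0.0419 and 0.0299.

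Cxcl10, the interferon-inducible ligand of Cxcr3, had 3.79, 2.61 and 2.83 CPM with vehicle. The counts were 62, 41 and 50 with vehicle, 7, 8 and 9 with rhWnt3a, and 1, 0 and 7 with OSMI added. It fell to 0.154 times the vehicle level with rhWnt3a (log2 fold change −2.68 ± 0.55, adjusted p = 0.0127), a call that was lost without vehicle replicate 1, rhWnt3a replicate 1 or rhWnt3a replicate 3 (adjusted p up to 0.0677 for this gene). The OSMI libraries were below those with vehicle by 4.23 ± 0.64 on the log2 scale (adjusted p = 0.002). Without OSMI replicate 3 this difference was −6.38, and without the 3 libraries that stood apart −6.48 (edgeR adjusted p = 4.09e-07 for Cxcl10), and as the remaining OSMI libraries held at most 1 count, both depend on the prior count of the fit. The OSMI step gave −1.55 ± 0.75 for Cxcl10 (95% interval −3.23 to 0.13, adjusted p = 0.252), and it was called without OSMI replicate 3 and without the 3 libraries that stood apart (−3.73, adjusted p = 0.00948). Exons of Art3 on the opposite strand overlap Cxcl10 over 133 bases, and reads there may have been divided or dropped in counting.

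Ccl25 acts through Ccr9 and is known from thymus and small intestine. It had 14.5, 13.4 and 10.3 CPM with vehicle, 15.5, 13.8 and 15.9 with rhWnt3a, and 17.4, 18.5 and 13.7 with OSMI added. The groups overlapped in every pair, and the differences were 0.24 ± 0.18 and 0.13 ± 0.18 on the log2 scale at the first and second step (adjusted p = 0.545 and 0.665). Its exons share 204 bases with Elavl1 on the other strand. Cxcl16, a membrane-bound chemokine like Cx3cl1, had 3 to 13 counts and was not called, and 552 of its exon bases are shared with Zmynd15.

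**Figure D2:**
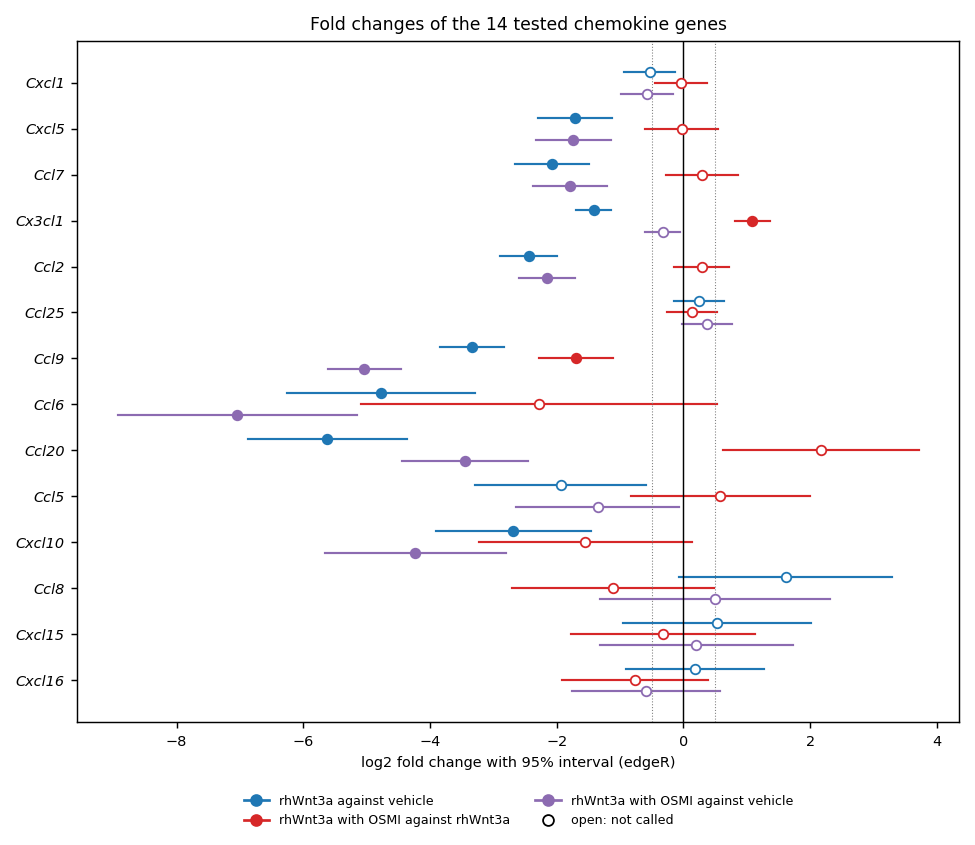
Log2 fold change of the 14 tested chemokine genes (horizontal axis) with its 95% interval from the edgeR fit, for the 3 comparisons in colors. Filled points are called, open points are not, and dotted lines mark a log2 fold change of 0.5 in size. The estimates for Ccl6 and Ccl20 rest on groups with counts at or near 0; 8 genes are filled to the left with rhWnt3a, and with OSMI Cx3cl1 lies to the right and Ccl9 to the left.

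Among the 11 members with some counts but no test, Ccl17 was the highest. Its counts were 9, 9 and 8 with vehicle, 2, 3 and 3 with rhWnt3a and 4, 5 and 4 with OSMI added, which places rhWnt3a at least 2.96-fold below vehicle without a test. Ccl3 had up to 13, Ccl28 up to 7, Cxcl17 up to 5 and Cxcl9 up to 4 counts in a library. Cxcl2, Cxcl3, Ccl1, Ccl11, Ccl22 and Ccl27a had at most 2. The symbols at 0 in all libraries were Ccl4, Ccl12, Ccl19, Ccl21a, Ccl21b, Ccl21c, Ccl24, Ccl26, Ccl27b, Cxcl13 and Cxcl14. A count of 0 allows up to 3 counts per library, or 0.170 to 0.191 CPM, counting error only.

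Most of these genes lie beside each other. On chromosome 11 (GRCm38), Ccl2, Ccl7, Ccl11, Ccl12, Ccl8 and Ccl1 occupy 270 kb (chr11:82035571-82305690), and only Ccl2 and Ccl7 of them were called. Ccl5, Ccl9, Ccl6, Ccl3 and Ccl4 occupy 139 kb (chr11:83525778-83664683), with calls for Ccl9 and Ccl6. The 147 kb on chromosome 5 that hold Cxcl5, Cxcl3, Cxcl15, Cxcl1 and Cxcl2 (chr5:90759360-90905938) contained a call for Cxcl5 only. Cx3cl1 lies between Ccl22 and Ccl17 on chromosome 8 (chr8:94745590-94812036), and Ccl20 has no other member within 500 kb on chromosome 1. Tested and untested genes thus stood side by side in the stretches on chromosomes 11, 5 and 8.

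**Figure D3:**
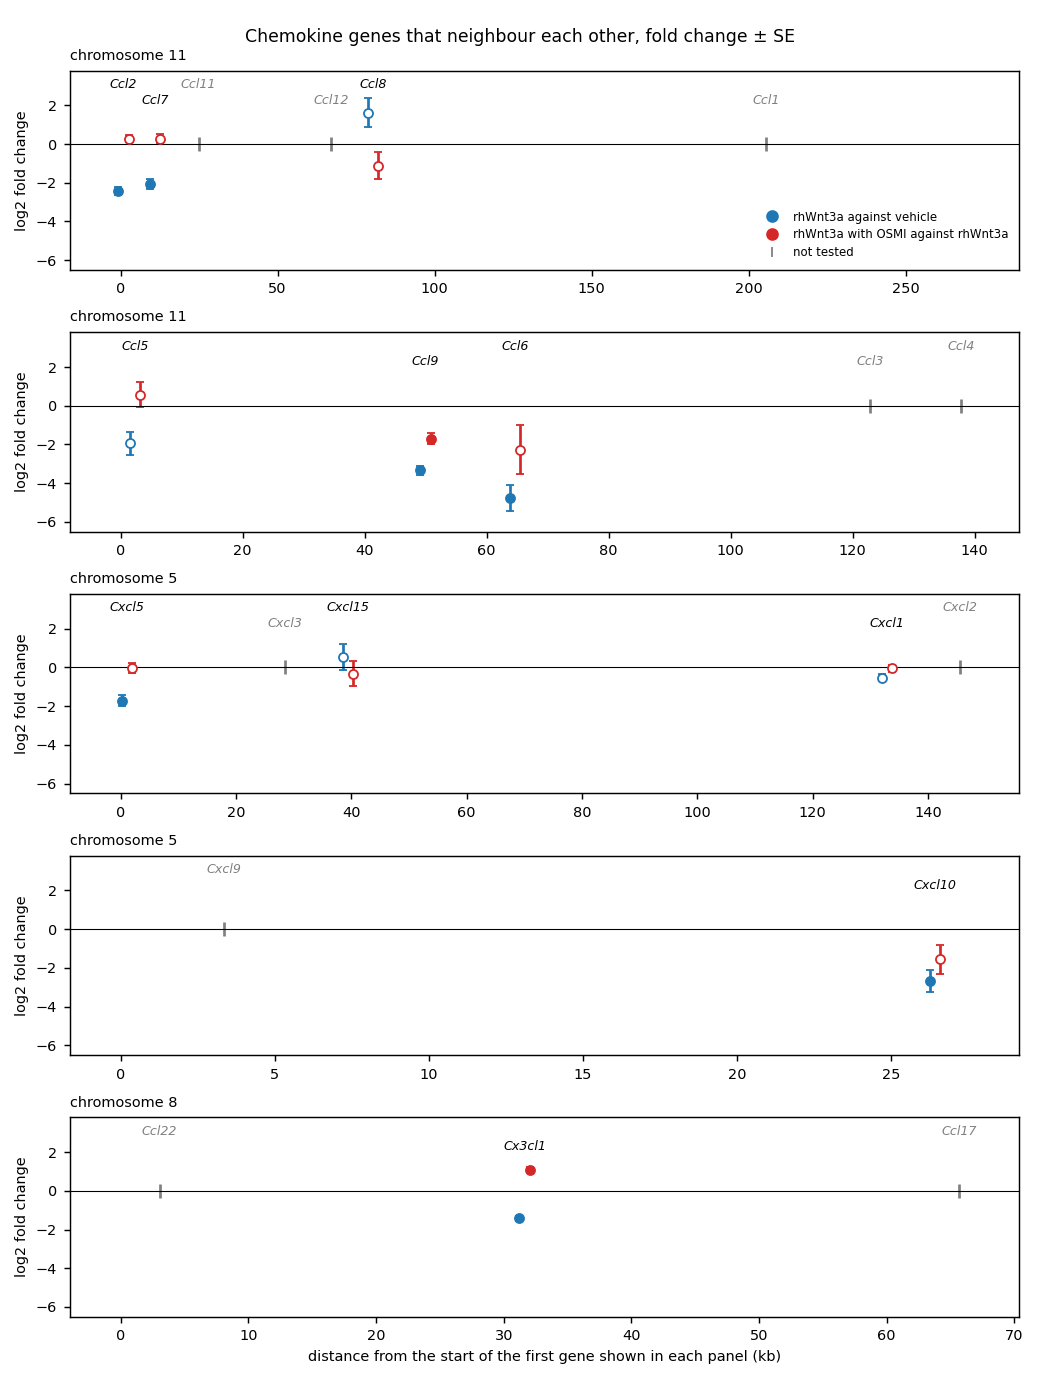
Log2 fold change ± SE (vertical axes) of chemokine genes that lie near each other, by distance from the start of the first gene of each stretch (horizontal axes, kb). Blue is rhWnt3a against vehicle and red OSMI added to rhWnt3a, filled points are called and gray ticks mark genes that were not tested; Ccl2 and Ccl7 fell with rhWnt3a while Ccl8 was not called, and Ccl9 is the only filled red point on chromosome 11.

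Chemokines outside the rule were Cxcl12, Pf4, Ppbp and Xcl1. Cxcl12 retains blood stem cells and B cell precursors in the marrow. It had 22899, 20770 and 22054 counts with vehicle, 4511, 4319 and 4659 with rhWnt3a, and 5839, 6645 and 5826 with OSMI added. It fell by 2.31 ± 0.14 on the log2 scale with rhWnt3a (adjusted p = 1.64e-05), and its OSMI step was not called. Pf4, a platelet chemokine, rose with rhWnt3a from 3 to 6 counts to 16 to 30 counts (log2 fold change 2.28 ± 0.41, adjusted p = 0.00606). Ppbp had 1 to 20 counts and Xcl1 0.

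Transcripts of the receptors were nearly absent. Of 23 receptor genes, 3 were tested and 8 were at 0 in all libraries, among them Ccr1, Ccr2, Cxcr2, Cxcr3 and Cxcr4. Cx3cr1 had at most 3 counts and Ccr6 at most 2. Cxcr1, which did not pass the filter, had 9, 15 and 1 counts with vehicle, 1, 1 and 0 with rhWnt3a and 2, 1 and 2 with OSMI added. The edgeR fit without a filter called Cxcr1 lower with rhWnt3a (log2 fold change −3.49, adjusted p = 0.0401), a call that rests on these few counts. DESeq2 did not call it (adjusted p = 0.0862). The scavenging receptor Ackr3, which binds Cxcl12, had 5, 11 and 39 counts with vehicle, 44, 48 and 30 with rhWnt3a and 3, 4 and 7 with OSMI added. It fell with OSMI (log2 fold change −3.10 ± 0.67, adjusted p = 0.0305), as did 3.05% of all tested genes, and was not called with rhWnt3a. Without vehicle replicate 2, any 1 of the rhWnt3a libraries, or OSMI replicate 1 or 2, 0 receptors were called at the OSMI step. Ackr3 was called higher with rhWnt3a without vehicle replicate 3 (2.25, adjusted p = 0.0171) and without the libraries that stood apart (2.11, adjusted p = 0.00158). Ccr10 and Ackr4 were not called at either step with every library, but without those that stood apart Ackr4 was called lower with OSMI (−2.09, adjusted p = 0.0264). Among 6 genes whose products shed or cut chemokines, 5 were tested, and only Mmp2, a gelatinase that truncates Ccl7 and Cxcl12, was called. It fell at both steps, from 4323 ± 370 CPM to 1914 ± 28.2 and 847 ± 238 (all tested genes: 5.86% and 3.05% fell). The call at the OSMI step (log2 fold change −1.18, adjusted p = 0.0124) was lost without rhWnt3a replicate 1 or 3 or OSMI replicate 1 or 2 (adjusted p up to 0.0798 for Mmp2). Without OSMI replicate 3, or without the libraries that stood apart, Mmp14 was called lower as well (−0.89, adjusted p = 0.00478, and −0.90, adjusted p = 5.86e-09).

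All 28 listed genes of the NF-kB pathway were tested. With rhWnt3a, 10 of the 28 fell and 2 (Rel and Ikbkg) rose, with a median log2 fold change of −0.35. Of all tested genes, 5.86% fell and 2.92% rose at that step. The receptor Tlr2, which senses bacterial lipoproteins, fell from 135 ± 12.6 to 28.7 ± 0.52 CPM (log2 fold change −2.23 ± 0.12, adjusted p = 1.17e-05). Nfkbie, which encodes an inhibitor of NF-kB, fell by 1.61 ± 0.17 (log2, adjusted p = 3.33e-04), and the interleukin-1 receptor gene Il1r1 fell by 1.11 ± 0.15 (adjusted p = 0.0012). Tlr3 fell by 1.41 ± 0.23 (adjusted p = 0.00334). The subunit genes Nfkb2 and Relb, the inhibitor genes Nfkbia and Nfkbiz, Tnip1 and Traf2 fell by less, and Rela and Nfkb1 were not called. The list thus holds activators and inhibitors that fell together. With OSMI added, Nfkb2 (0.81 ± 0.15, adjusted p = 0.0162) and Nfkbie (0.90 ± 0.17, adjusted p = 0.0184) rose and Bcl3 fell (median of the list 0.21). The shares over all tested genes were 1.69% raised and 3.05% lowered. The falls with rhWnt3a numbered 5 without rhWnt3a replicate 1 and 6 without rhWnt3a replicate 3 or vehicle replicate 2, and 11 without the libraries that stood apart. The rises with rhWnt3a (Rel 0.66, adjusted p = 0.0298; Ikbkg 0.51, adjusted p = 0.0303) numbered 0 without vehicle replicate 2 or 3, rhWnt3a replicate 1 or 3 or OSMI replicate 2, and 0 in a fit of the 6 libraries compared. Leaving out any 1 of the 3 rhWnt3a libraries left 0 rises of the list at the OSMI step.

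Interferon signalling genes numbered 14 among those tested, and with rhWnt3a 4 fell and 0 rose (median −0.28; all tested genes: 5.86% fell, 2.92% rose). Among those that fell were Irf9 and Stat2, which encode transcription factors that act on the response element named for Cxcl10 above, and Irf7. Irf9 went from 112 ± 2.16 to 40.3 ± 3.93 CPM (log2 fold change −1.47 ± 0.18, adjusted p = 7.2e-04). The log2 fold changes were −2.46 ± 0.41 for Irf7 and −1.74 ± 0.38 for Stat2. Without rhWnt3a replicate 1 the falls of this list numbered 2. OSMI lowered Socs1, a feedback inhibitor of this pathway, and 0 of the 14 rose at that step (median 0.16). Among all tested genes, 3.05% were lowered and 1.69% raised. The call of Socs1 was lost on leaving out any 1 library other than vehicle replicate 3 or OSMI replicate 3. Stat2 had 6317 counts in OSMI replicate 3 against 2406 and 2612 in the other two.

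Other inflammatory genes went in both directions. Of 22 listed, 16 were tested, and with rhWnt3a 5 fell (Il1rn, Lcn2, C3, Vcam1 and Icam1) and 2 rose (Lif and Il33), with a median of −0.33. The shares over all tested genes were 5.86% and 2.92%. Il1rn, which encodes the interleukin-1 receptor antagonist, went from 486 ± 43.4 to 81.7 ± 3.08 CPM (log2 fold change −2.57 ± 0.19, adjusted p = 5.22e-05). Lif, a cytokine of the interleukin-6 family, rose from 5.51 ± 1.26 to 21.4 ± 2.15 CPM (1.95 ± 0.21, adjusted p = 3.33e-04). With OSMI added, Csf1, the growth factor of macrophages and osteoclast precursors, rose from 629 ± 66.4 to 1595 ± 139 CPM (1.34 ± 0.20, adjusted p = 0.00596). Complement C3 rose and Vcam1, Lif and Il33 fell at that step (median −0.32). Among all tested genes, 1.69% rose and 3.05% fell. Il1b and Csf2 were at 0, and Tnf had at most 1 count. Without OSMI replicate 1 or 2 the list had 1 rise and 1 fall at this step, and without the libraries that stood apart 4 and 6. No set test was run on these lists, and their medians stand beside 0.04 and −0.01 over all tested genes.

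**Figure D4:**
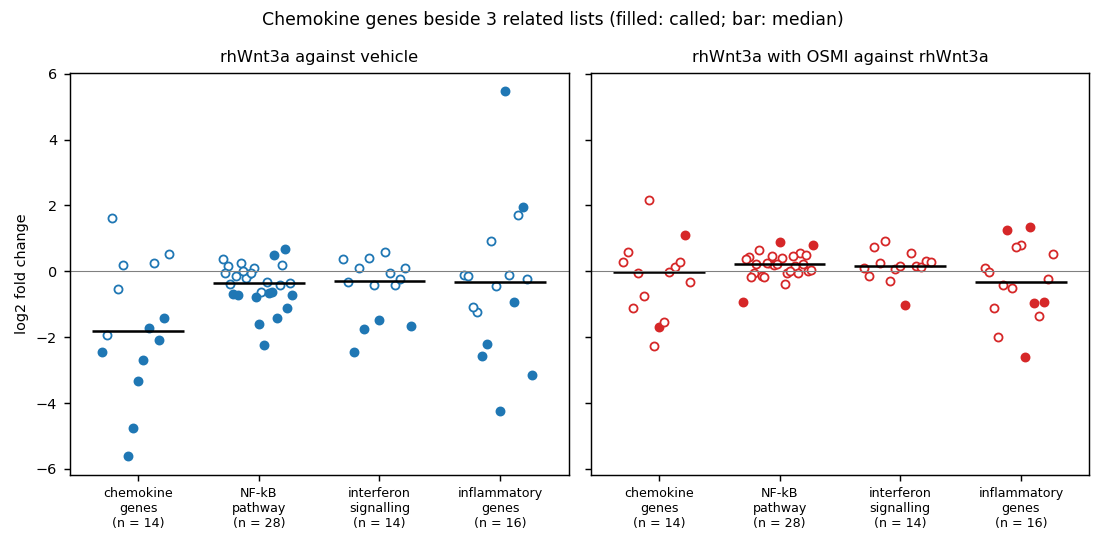
Log2 fold change (vertical axis) of the tested chemokine genes and of the tested genes of 3 lists, at the rhWnt3a step (left) and the OSMI step (right). Each point is a gene, filled where called, and bars are medians, which with rhWnt3a lie at −1.82 for the chemokines and at −0.35, −0.28 and −0.33 for the NF-kB, interferon and inflammatory lists.

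Markers of cells other than stroma were low. Of the 11 macrophage and blood cell markers, Ptprc had at most 2 counts, Adgre1 at most 1 and Itgam 0, and 3 of the 11 were tested. Their summed level was 14.5 to 21.4 CPM with vehicle, 7.42 to 11.5 with rhWnt3a and 3.44 to 10.6 with OSMI added, most of it Lyz2 and Cd14. It was thus higher in each vehicle library, as the 8 falling chemokines were, and its part in their levels was not tested. The 7 endothelial markers summed to 1.48 to 4.08 CPM over all libraries, with Cdh5 and Kdr at most at 1 count and Tie1 at 0. Emcn, one of them, had 19 to 34 counts with vehicle and 0 in each rhWnt3a library. Vwf, the other tested marker of this list, went the other way. It had 20, 20 and 16 counts with vehicle, 40, 21 and 40 with rhWnt3a and 51, 34 and 43 with OSMI added. The 12 stromal markers summed to 21108 to 27558 CPM with vehicle, 18257 to 21263 with rhWnt3a and 9696 to 18015 with OSMI added. Most of this sum was Col1a1 and Col1a2, so it says little about the other markers. Thy1 and Lepr were at 4 counts or fewer.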

How the data were processed

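RNA of 9 ST2 libraries was sequenced by the study. According to the submitters' processing notes, CASAVA, fastp, HISAT2 2.0.5 and featureCounts 1.5.0-p3 were used with mm10. Strandedness and annotation release are not given in the sources used here. The authors deposited raw read counts per gene, and FPKM values that they scaled to gene length and library size. Their columns of fold changes and p-values from comparisons of groups were not used.

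Counts of all 54532 genes were filtered with filterByExpr (minimum count 10, minimum total 15) and fitted in edgeR 4.0.16 (R 4.3.3; TMM, glmQLFit on 9 libraries and 3 groups, two-sided glmQLFTest, common dispersion 0.0452). Benjamini-Hochberg adjustment covered the 14004 tested genes of each comparison. With 3 libraries against 3, an exact permutation of a single gene cannot go below p = 0.1. DESeq2 1.42.0, other filters and scalings, a replicate block and left-out libraries were alternatives.

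Members and lists were chosen with earlier results of these data known. Text names every tested member, with values per library for called members and the 3 most abundant others. From each list at most 4 called genes were to be described by smallest adjusted p, and further called genes were named after their values were seen. Near-identical transcripts were searched with BLAST 2.17.0 in GENCODE M21 (97% identity over 100 bases): other genes cover 24.1% of Cxcl16, 12.2% of Cxcl10, 7.35% of Ccl25, 6.35% of Cxcl5 and 4.46% of Ccl9. The genes found for Cxcl16, Cxcl10 and Ccl25 were Zmynd15, Art3 and Elavl1. These are the genes on the opposite strand that share exon bases with them, as given above. Of 42 IDs, 35 are in GENCODE M21 with the same positions. Promoters are from RefSeq. Values of 2 list genes are not reported here.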

Additional observations from a re-analysis of the deposited data

How the results depend on the processing

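Of the 17 chemokine calls over the 3 comparisons, 2 were lost under an alternative that still tested the gene. They were the fall of Cxcl10 with rhWnt3a and that of Ccl9 with OSMI, as given above. Ccl6, Ccl20 and Cxcl10 were not tested where at least 10 counts were required in every library. Their calls against vehicle were thus absent there. Counts of called chemokine genes moved most where fewer genes were tested or fewer libraries fitted. With at least 10 counts required in every library they were 5 of 7 tested for rhWnt3a and 4 of 7 for OSMI against vehicle, the scarce genes being removed. Among all genes, that filter left 12005 tested, of which 976 and 1660 were called. For the OSMI step the chemokine calls were 1 with 6 libraries and 5 without the libraries that stood apart (Ccl2, Ccl7, Ccl9, Cx3cl1 and Cxcl10). Leaving out 1 library gave 7 to 9, 2 to 3 and 7 to 8 calls in the 3 comparisons. Same-numbered libraries did not deviate together (correlations −0.49 to 0.44), so the numbers were not used to pair samples, and with a replicate block the chemokine calls stayed at 8, 2 and 7.

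Over all genes, 1230, 664 and 1986 calls (rhWnt3a step, OSMI step, OSMI against vehicle) became 809, 233 and 1297 with the replicate block, 2557, 1789 and 3351 without the libraries that stood apart, and 2155, 2271 and 3186 with unadjusted p. Leaving out 1 library gave 716 to 1506, 203 to 764 and 1218 to 2328. The OSMI step had 1241 calls by DESeq2, 1481 without a filter and 345 with 6 libraries. Calls in the gene lists (26, 11 and 24), in alternatives chosen after seeing the data, ranged over 16 to 27, 2 to 14 and 15 to 28 when 1 library was left out. At the OSMI step the lists had 19 without a filter, 5 with the replicate block (Ackr3 was not called, edgeR adjusted p = 0.06) and 20 without the libraries that stood apart. With the block the NF-kB list had 7 falls and 0 rises with rhWnt3a. The cause of these shifts was not tested.

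Signs turned only for uncalled genes. Without the libraries that stood apart, the OSMI step was 0.12 for Cxcl1, 0.17 for Cxcl5 and −0.47 for Ccl5, Cxcl16 was −0.081 with rhWnt3a, and Cxcl15 was −1.02 with OSMI against vehicle. Leaving out 1 library gave, at the OSMI step, −0.090 to 0.070 for Cxcl1, −0.12 to 0.19 for Cxcl5, −0.68 to 1.02 for Ccl5 and −1.19 to 0.17 for Cxcl15. It gave −0.056 to 0.51 for Cxcl16 with rhWnt3a and, for OSMI against vehicle, −0.66 to 1.43 for Ccl8 and −0.66 to 0.71 for Cxcl15. Without the filter 25 of the 42 IDs were tested, and the remaining 17 had no counts.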
